A study of Homo sapiens with 4 samples.

Results

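The transcript levels of 10 genes of cytokine signaling, STAT3, STAT5A, STAT5B, STAT6, JAK2, SOCS1, SOCS2, SOCS3, CISH and PIM1, were examined in U937 cells, a human monocytic line established from a histiocytic lymphoma and used as a leukemia model. The genes were listed by name, with earlier results of these data known but no measured value as a criterion, and all 10 were found among the 17656 genes of the deposited table. The study sequenced RNA of these cells to ask which genes depend on ZNF217, a DNA-binding zinc finger protein and partner of corepressors. There were 4 libraries. The labels placed 2 of them in the group sh-ZNF217, described as a ZNF217 knockdown, and 2 in the group NC, described as U937 cells without treatment, and all 4 shared the parental line and the RNA kit. How ZNF217 was targeted is described in different ways. The labels and the study's sequencing methods name a knockdown, while its results describe this RNA sequencing as that of a CRISPR knockout. The methods cover both lentiviral shRNA and CRISPR lines. Which system and which time after its start these libraries represent is therefore uncertain. The labels describe NC as untreated, while the study also used cells with nontargeting controls, so whether NC carried a control vector is uncertain too, and effects of transduction were not tested.

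Cytokines bind paired receptors whose cytoplasmic tails carry JAK tyrosine kinases. The JAKs phosphorylate the receptor and the STAT proteins that dock on it, and STAT dimers then enter the nucleus and bind DNA. Among the genes they switch on are their own brakes, the SOCS proteins and CISH, which block or remove JAKs and receptors, and PIM1, a serine/threonine kinase that favours survival and growth. Myeloid cells rely on this pathway for responses to GM-CSF, interleukins and interferons. STAT activity is set by phosphorylation, which transcript levels do not show.

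STAT dimers recognise the palindrome TTCNNNGAA, and STAT6 also accepts its arms TTC and GAA with 4 bases between them. RefSeq promoter windows of GRCh38.p14, which reach from 250 bases before to 50 after a start site, were found for 9 of the 10 genes, in 15 entries. SOCS2 had none. TTCNNNGAA, which reads the same on both strands, occurred in the window of CISH alone. The stretch of the CISH window from 250 to 101 bases before the start site (chr3:50611875-50612024, GRCh38.p14, minus strand) is shown because it carries all 4 matches, in capitals, which begin at bases 10, 21, 122 and 139.
CISH: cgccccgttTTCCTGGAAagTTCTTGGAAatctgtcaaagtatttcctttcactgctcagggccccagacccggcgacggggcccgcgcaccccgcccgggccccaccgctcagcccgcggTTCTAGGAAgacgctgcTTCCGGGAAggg
Of 35116 promoter entries of the same length, 7.66% held at least 1 match and 0.0199% (7 entries of 6 genes) held at least 4. The longer spacing was found once among the 10 genes, at base 22 of 1 of the 3 STAT5A entries (chr17:42287210-42287219, GRCh38.p14, plus strand), and in 6.44% of all entries.
STAT5A: TTCCTCTGAA
These matches describe letters in the windows only.

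Levels were taken as TPM, a measure that scales each gene by its transcript length and by the library total. The header of the deposited values names no unit, so comparisons of level between genes rest on this reading. TPM keeps no read number, and the depth of the libraries is unknown. ZNF217 itself (ENSG00000171940, chromosome 20) had 35.8 and 35.0 TPM in the sh-ZNF217-labelled libraries, against 36.1 and 36.7 TPM in NC, which is -0.04 as a log2 fold change (SE 0.07, limma adjusted p = 0.740). Its transcript thus gave the sh-ZNF217 label no support. Because how ZNF217 was targeted is uncertain, this level cannot decide whether the label is right. Every direction below rests on the labels. Whether replicates were separate cultures is not stated in the labels, and the p-values measure only the spread between these libraries, possibly technical. Column totals ran from 998932 to 998959 in the sh-ZNF217-labelled libraries and from 999280 to 999282 in NC. The median absolute log2 difference between replicates was 0.128 in the sh-ZNF217-labelled libraries and 0.122 in NC.

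The identity of the cells was checked on markers. All 14 markers of the monocytic line were in the table, and MPO, a primary granule enzyme, was the lowest, at 0.0854 and 0.223 TPM in the sh-ZNF217-labelled libraries, against 0.513 and 0.130 TPM in NC. Their summed level was 7046 and 6952 TPM in the sh-ZNF217-labelled libraries, against 4609 and 4652 TPM in NC. Most of this difference was LYZ, the lysozyme gene, and without it the sum was 1535 and 1624 TPM in the sh-ZNF217-labelled libraries, against 1339 and 1396 TPM in NC. Of 13 tested, 5 were called higher (ITGAM, LYZ, CD68, CSF1R and PTPRC) and 2 lower (ELANE and PRTN3), all named after their values were seen. Among all tested genes 6.26% were called higher and 2.46% lower. CD68 shares 1765 exonic bases with a long noncoding RNA on the same strand, and LYZ shares 599 with one on the other strand. The calls of CSF1R and ELANE were lost without either sh-ZNF217-labelled library (adjusted p of 0.0515 to 0.0714), that of CD68 without either NC library (0.0780 and 0.105), and that of PTPRC without sh-ZNF217 replicate 1 (0.0549, all limma). Of 8 T and NK cell markers, 2 were in the table, CD2 and NKG7. NKG7 had 96.9 and 104.9 TPM in the sh-ZNF217-labelled libraries, against 85.2 and 67.5 TPM in NC, and was not called (limma adjusted p = 0.0699). CD2 was low, at 3.77 and 5.33 TPM in the sh-ZNF217-labelled libraries, against 1.12 and 1.68 TPM in NC. CD2 was called higher, and lost the call without any of 3 libraries (adjusted p of 0.0744 to 0.129). CD3D, CD3E and CD3G were not listed. Of the B cell markers, PAX5 had 1.87 and 1.79 TPM in the sh-ZNF217-labelled libraries, against 3.72 and 4.13 TPM in NC, and CD79A had 2.29 and 1.31 TPM in the sh-ZNF217-labelled libraries, against 0.426 and 0.235 TPM in NC. PAX5 was called lower, and lost the call without any 1 of the 4 libraries (limma adjusted p of 0.121 to 0.165). The 8 erythroid and megakaryocyte markers and the 8 epithelial and fibroblast markers were all unlisted. The part of the monocytic marker shift in the levels below was not tested.

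SOCS2 was the only gene of the 10 called different between the groups, and it was lower in the sh-ZNF217-labelled libraries. Calls required an adjusted p under 0.05 together with a log2 fold change beyond 0.5 in either direction, in limma on log2(TPM + 1) with Benjamini-Hochberg adjustment over 14582 genes, those at 1 TPM or above in 2 libraries or more. Of the 10 genes 9 passed this filter and SOCS3 did not. Of these 9, 0 were called higher, against 6.26% of all tested genes, and 1 was called lower, against 2.46%. At an unadjusted limma p below 0.05 the counts were 2 higher (JAK2 and STAT6) and 2 lower (SOCS2 and STAT5B), against 18.9% and 15.5% of all tested genes. The median log2 fold change of the 9 genes was 0.04, against 0.02 for all tested genes, and they ranged from -0.86 to 0.40. The groups did not overlap for 4 of the 9 in the higher direction and 3 in the lower one, against 33.5% and 28.6% of all tested genes.

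**Figure D1:**
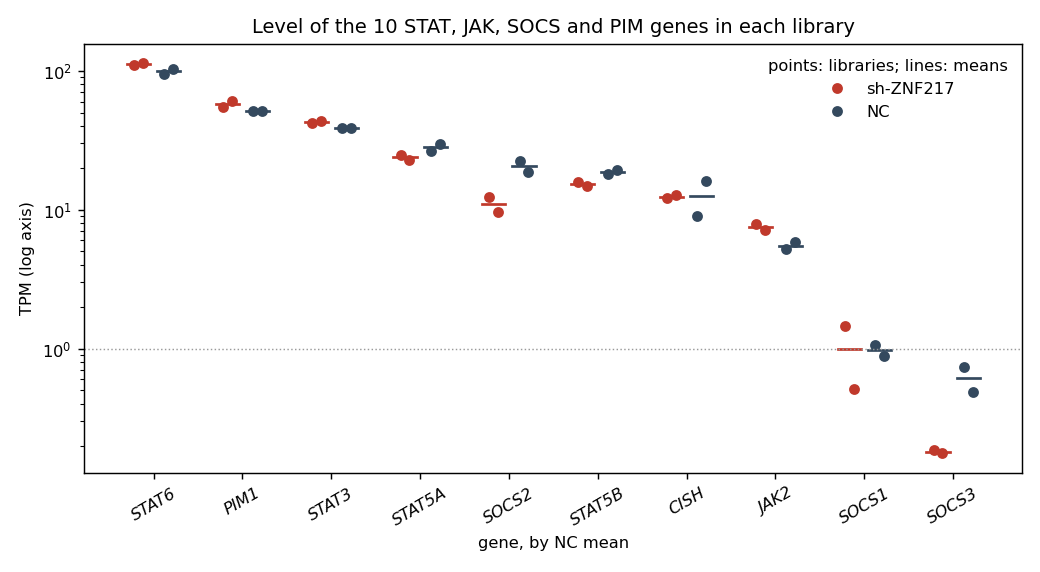
Level of the 10 genes in TPM (log axis), where points are libraries and lines the means of 2, sh-ZNF217 in red and NC in blue, and a dotted line at 1 TPM. SOCS2 stands apart at 11.0 TPM in the sh-ZNF217-labelled libraries, against 20.7 TPM in NC, while CISH is spread widely in NC (9.02 and 16.0 TPM) and JAK2 lies at 7.56 TPM, against 5.50 TPM in NC.

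By level, the genes spanned from STAT6 at the top to SOCS3 at the bottom in both groups. Mean TPM in the sh-ZNF217-labelled libraries ran STAT6 (111), PIM1 (57.8), STAT3 (42.8), STAT5A (23.9), STAT5B (15.4), CISH (12.4), SOCS2 (11.0), JAK2 (7.56), SOCS1 (0.987) and SOCS3 (0.181). In NC the order was the same except for SOCS2, which was the fifth at 20.7 TPM, just above STAT5B at 18.7 TPM. Neighbours whose libraries overlapped were CISH and SOCS2 in the sh-ZNF217-labelled libraries, and SOCS2 and STAT5B in NC. Within the tested genes, SOCS2 lay at the 39.4th percentile of level in the sh-ZNF217-labelled libraries and at the 55.3rd in NC. STAT6 lay at the 89.8th and 88.1st percentiles in these groups.

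The JAK kinases come first in the cascade after the receptor. JAK2 (ENSG00000096968, chromosome 9, 4984390 to 5129948, plus strand, hg38) carries signals of the GM-CSF, erythropoietin and interferon gamma receptors. It had 7.93 and 7.19 TPM in the sh-ZNF217-labelled libraries, against 5.19 and 5.81 TPM in NC. Both sh-ZNF217-labelled libraries lay above both NC libraries, with a mean of 7.56 ± 0.525 TPM against 5.50 ± 0.439 TPM in NC (SD, n = 2 each). Its log2 fold change of 0.40 (SE 0.15, 95% interval 0.03 to 0.77) did not pass the test (limma adjusted p = 0.125), and the interval includes changes beyond the fold minimum.

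Of the other JAKs, JAK1 was the most abundant and the one nearest to a call. This kinase serves the interferon and gp130 receptors. It had 87.0 and 84.9 TPM in the sh-ZNF217-labelled libraries, against 62.9 and 70.8 TPM in NC. Its log2 fold change of 0.36 (limma adjusted p = 0.0330, SE 0.08) lay below the fold minimum, so it was not called. The limma adjusted p of JAK1 was 0.107 with a constant prior variance in place of a trended one. With replicate number as a further term it was 0.0543. JAK3, which pairs with the common gamma chain, and TYK2, a kinase of interferon receptors, had log2 fold changes of -0.09 and 0.07. JAK2 made up 4.68% and 4.42% of the summed TPM of the 4 JAK genes in the sh-ZNF217-labelled libraries, against 3.65% and 4.01% in NC. That sum was 169.3 and 162.5 TPM in the sh-ZNF217-labelled libraries, against 142.2 and 144.9 TPM in NC.

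None of the 4 STAT genes was called, and by value STAT3 and STAT6 were above NC and STAT5A and STAT5B below it. STAT3 (ENSG00000168610, chromosome 17, 42313324 to 42388540, minus strand, hg38), the main STAT of IL-6 and IL-10, had 42.1 and 43.5 TPM in the sh-ZNF217-labelled libraries, against 38.4 and 38.8 TPM in NC. The groups did not overlap, but the difference was small, with a log2 fold change of 0.14 (SE 0.07, 95% interval -0.03 to 0.32, limma adjusted p = 0.201). STAT6 (ENSG00000166888, chromosome 12, 57095408 to 57132139, minus strand, hg38), the STAT of IL-4 and IL-13, had 109.3 and 112.7 TPM in the sh-ZNF217-labelled libraries, against 94.8 and 102.9 TPM in NC. Its log2 fold change was 0.17 (SE 0.07, 95% interval 0.005 to 0.33, limma adjusted p = 0.136). Both intervals stay within the fold minimum of 0.5. STAT6 shares 69 exonic bases with NAB2 and 59 with LRP1, both on the other strand, and the use of strand is not given in the sources used here. NAB2, a corepressor of early growth response factors, had 26.2 and 26.0 TPM in the sh-ZNF217-labelled libraries, against 29.9 and 28.0 TPM in NC.

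STAT5A and STAT5B, neighbours on chromosome 17 that act downstream of GM-CSF, IL-3 and growth hormone receptors, differed from NC in the same direction, short of a call. STAT5A (ENSG00000126561, 42287547 to 42311943, plus strand, hg38) had 24.9 and 22.9 TPM in the sh-ZNF217-labelled libraries, against 26.6 and 29.4 TPM in NC. STAT5B (ENSG00000173757, 42199176 to 42288633, minus strand, hg38) had 15.9 and 14.8 TPM in the sh-ZNF217-labelled libraries, against 18.0 and 19.4 TPM in NC. For both genes every sh-ZNF217-labelled library lay below every NC library. The log2 fold changes were -0.22 for STAT5A (SE 0.10, 95% interval -0.46 to 0.01, limma adjusted p = 0.162) and -0.27 for STAT5B (SE 0.10, 95% interval -0.52 to -0.01, limma adjusted p = 0.133), and neither was called. The ratio of STAT5A to STAT5B was nearly constant, at 1.56 and 1.55 in the sh-ZNF217-labelled libraries, against 1.48 and 1.52 in NC. The genes share 415 exonic bases on opposite strands, and without a stated use of strand the reads there cannot be assigned to either.

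STAT6 made up 56.9% and 58.2% of the summed TPM of STAT3, STAT5A, STAT5B and STAT6 in the sh-ZNF217-labelled libraries, against 53.3% and 54.0% in NC. STAT2, which carries signals of type I interferons, had 32.4 and 29.0 TPM in the sh-ZNF217-labelled libraries, against 22.5 and 26.3 TPM in NC, and its log2 fold change of 0.32 did not pass the test (limma adjusted p = 0.102). STAT4 was not listed. Of JAK1, JAK3, TYK2 and STAT2, 0 were called in limma, with 2 higher (JAK1 and STAT2) and 0 lower at an unadjusted p below 0.05. Over all tested genes the shares at that p were 18.9% and 15.5%.

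**Figure D2:**
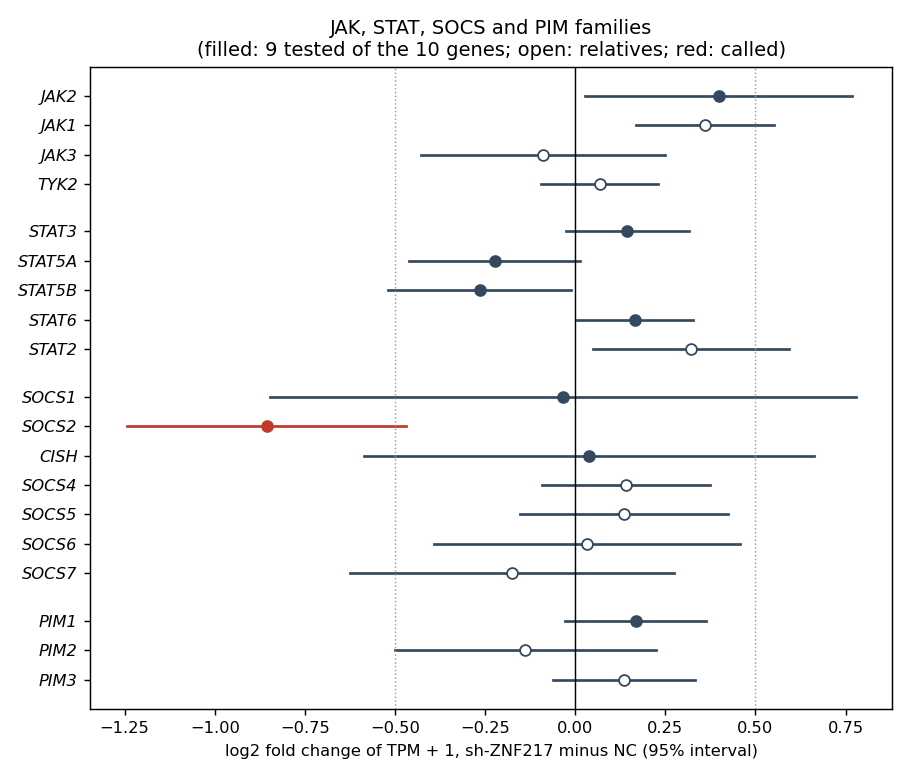
Log2 fold change of TPM + 1, sh-ZNF217-labelled libraries minus NC, with 95% intervals, for the 9 tested genes (filled) and 10 relatives (open), with dotted lines at the fold minimum of 0.5. SOCS2 in red, at -0.86 with an interval of -1.24 to -0.47, is the one gene called.

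SOCS2, which in mice restrains growth hormone signaling through STAT5, had about the level of STAT5B in NC and fell in the sh-ZNF217-labelled libraries. SOCS2 (ENSG00000120833) lies on the plus strand of chromosome 12 (93569814 to 93583487, hg38). It had 12.3 and 9.65 TPM in the sh-ZNF217-labelled libraries, against 22.5 and 18.8 TPM in NC. Every sh-ZNF217-labelled library lay below every NC library, and the means, 11.0 ± 1.91 TPM against 20.7 ± 2.63 TPM in NC (SD, n = 2 each), had a ratio of 0.532. On the log2 scale this was a change of -0.86 (SE 0.16, 95% interval -1.24 to -0.47, limma adjusted p = 0.0229). In a bulk library, fewer cells that express a gene and less RNA per cell cannot be told apart. Because the groups did not overlap, leaving out 1 library could not change the direction. SOCS2 stayed called when NC replicate 2 was dropped, at a log2 fold change of -0.98. Dropping any other library ended the call. The change was then -0.73 for NC replicate 1, and -1.02 and -0.69 for sh-ZNF217 replicates 1 and 2. With all libraries, the call was lost with a constant prior variance in place of a trended one (limma adjusted p = 0.0714). SOCS2-AS1, a long noncoding RNA that shares 277 exonic bases with SOCS2 on the other strand, had 0.984 and 0.564 TPM in the sh-ZNF217-labelled libraries, against 0.738 and 1.89 TPM in NC.

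CISH, the SOCS-like brake that STAT5 induces, showed no such difference, and its NC libraries disagreed. CISH (ENSG00000114737, chromosome 3, 50606489 to 50611774, minus strand, hg38) had 12.1 and 12.7 TPM in the sh-ZNF217-labelled libraries, against 9.02 and 16.0 TPM in NC. The NC libraries enclosed both sh-ZNF217-labelled libraries. The log2 fold change of 0.04 (SE 0.25, 95% interval -0.59 to 0.66, limma adjusted p = 0.934) turned to -0.34 without NC replicate 1 and became 0.42 without NC replicate 2. The interval reaches beyond the fold minimum on both sides, so these libraries do not show that CISH stayed the same. CISH shares 218 exonic bases, which lie at its promoter end, with MAPKAPK3 on the other strand. MAPKAPK3, a stress-activated kinase, was far more abundant, with 297 and 300.2 TPM in the sh-ZNF217-labelled libraries, against 321 and 338 TPM in NC.

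SOCS1 and SOCS3, the brakes that inhibit JAK catalytic activity directly, were both near or below 1 TPM. SOCS1 (ENSG00000185338, chromosome 16, 11254417 to 11256204, minus strand, hg38) had 1.46 and 0.515 TPM in the sh-ZNF217-labelled libraries, against 1.06 and 0.890 TPM in NC. Its sh-ZNF217-labelled libraries enclosed those of NC, and the log2 fold change of -0.03 had an interval of -0.85 to 0.78 (SE 0.33, limma adjusted p = 0.956). Without sh-ZNF217 replicate 2 it was 0.32. SOCS3 (ENSG00000184557, chromosome 17, 78356778 to 78360077, minus strand, hg38) had 0.185 and 0.176 TPM in the sh-ZNF217-labelled libraries, against 0.741 and 0.483 TPM in NC. Both sh-ZNF217-labelled libraries lay below both NC libraries, with a ratio of means of 0.295, but the gene was under the filter. When no filter was applied its log2 fold change, compressed by the added 1 TPM, was -0.45 (limma adjusted p = 0.232).

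**Figure D3:**
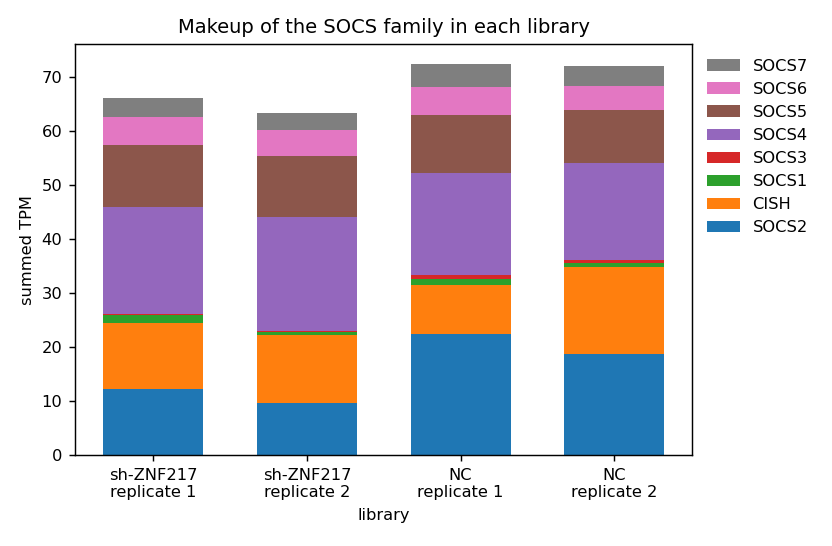
Summed TPM of the 8 SOCS family genes in each library, stacked by gene, with the sh-ZNF217-labelled libraries at the left and NC at the right. The SOCS2 segment at the base takes 18.7% and 15.2% of the bar in the sh-ZNF217-labelled libraries, against 31.0% and 26.0% in NC, while SOCS1 and SOCS3 are thin in all 4.

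The summed level of SOCS1, SOCS2, SOCS3 and CISH was 26.1 and 23.0 TPM in the sh-ZNF217-labelled libraries, against 33.3 and 36.2 TPM in NC. SOCS2 made up 47.3% and 42.0% of it in the sh-ZNF217-labelled libraries, against 67.5% and 52.0% in NC. The other SOCS genes, whose targets include growth factor receptors, had log2 fold changes of 0.14 (SOCS4), 0.14 (SOCS5), 0.03 (SOCS6) and -0.18 (SOCS7). With all 8 family genes the sum was 66.2 and 63.4 TPM in the sh-ZNF217-labelled libraries, against 72.5 and 72.2 TPM in NC. Of the 6 SOCS and PIM relatives tested, 0 were called in limma and 0 reached an unadjusted p below 0.05.

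PIM1 (ENSG00000137193, chromosome 6, 37170152 to 37175428, plus strand, hg38) was the second most abundant of the 10 genes. It had 54.5 and 61.0 TPM in the sh-ZNF217-labelled libraries, against 51.4 and 51.0 TPM in NC. The groups did not overlap, and the log2 fold change of 0.17 (SE 0.08, 95% interval -0.03 to 0.36, limma adjusted p = 0.194) did not pass the test. PIM1 made up 39.7% and 40.9% of the summed TPM of the 3 PIM kinases in the sh-ZNF217-labelled libraries, against 38.9% and 39.0% in NC. PIM2 and PIM3 had log2 fold changes of -0.14 and 0.14.

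The other brakes of the pathway included phosphatases, PIAS proteins and ubiquitin ligases. Of 14 tested, 1 was called higher and 0 lower, against 6.26% and 2.46% of all tested genes. Their median log2 fold change was 0.21. At an unadjusted limma p below 0.05 there were 4 higher and 1 lower, against 18.9% and 15.5%. The gene called was PTPRC, the CD45 phosphatase, also a marker above, with 182 and 168 TPM in the sh-ZNF217-labelled libraries, against 108 and 120 TPM in NC. Its log2 fold change was 0.61 (SE 0.08, limma adjusted p = 0.00929), and 0.55 with an adjusted p of 0.0549 without sh-ZNF217 replicate 1. PTPN6 encodes SHP-1, which dephosphorylates JAKs and receptors of myeloid cells. Named after its values were seen, PTPN6 had 136 and 139 TPM in the sh-ZNF217-labelled libraries, against 181 and 178 TPM in NC. Its log2 fold change of -0.38 (limma adjusted p = 0.0107) was below the fold minimum. With a constant prior variance the limma adjusted p was 0.0727.

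Few ligands of the pathway were found. Of 27 cytokines, 7 were in the table and 3 were tested, of which 0 were called in limma and 0 reached an unadjusted p below 0.05. EBI3, a subunit of IL-27, had 1.29 and 1.33 TPM in the sh-ZNF217-labelled libraries, against 0.736 TPM in NC replicate 2, and was listed at 0 in NC replicate 1. CLCF1, a gp130 cytokine, had a log2 fold change of 0.08 at a limma adjusted p of 0.734. OSM, a gp130 ligand and STAT5 target, was under the filter, at 0.851 and 1.18 TPM in the sh-ZNF217-labelled libraries, against 0.649 and 0.664 TPM in NC.

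The receptors that use JAKs included several genes called higher in the sh-ZNF217-labelled libraries. Of 32 receptor genes 25 were in the table and 24 tested. Of these, 6 were called higher and 0 lower, against 6.26% and 2.46% of all tested genes. Their median log2 fold change was 0.29. At an unadjusted limma p below 0.05 there were 13 higher and 0 lower, against 18.9% and 15.5%. At an adjusted p below 0.05 and any fold there were 12 higher, against 9.77% of all tested genes, and 0 lower, against 7.11%. IL7R, the alpha chain of the IL-7 receptor, had 11.5 and 12.1 TPM in the sh-ZNF217-labelled libraries, against 1.22 and 1.48 TPM in NC, a ratio of 8.79 (log2 fold change 2.45, SE 0.17, limma adjusted p = 0.00238). IL13RA1, which with IL4R forms a receptor for IL-4 and IL-13 upstream of STAT6, had 46.3 and 40.1 TPM in the sh-ZNF217-labelled libraries, against 25.0 and 26.8 TPM in NC (log2 fold change 0.71, limma adjusted p = 0.0115). For these genes the groups lay clearly apart. IFNGR1 binds interferon gamma and rose by a log2 fold change of 0.55, with 102 and 98.7 TPM in the sh-ZNF217-labelled libraries, against 63.6 and 73.5 TPM in NC (limma adjusted p = 0.0152). CSF2RA, the GM-CSF receptor alpha chain, had 18.6 and 19.1 TPM in the sh-ZNF217-labelled libraries, against 12.3 and 11.8 TPM in NC (log2 fold change 0.60, limma adjusted p = 0.0172). The others called, named after their values were seen, were IL10RA (0.75, limma adjusted p = 0.0247) and IL6ST, the shared gp130 subunit upstream of STAT3 (0.73, limma adjusted p = 0.0319), which overlaps an antisense RNA. Of the 6 calls that of IL7R alone was kept with each library left out in turn, and the count of receptors called higher was 5 and 4 without NC replicates 1 and 2, and 1 and 2 without sh-ZNF217 replicates 1 and 2. IL13RA1 lost its call without sh-ZNF217 replicate 1 (adjusted p = 0.0573). IFNGR1 lost it without NC replicate 1 (log2 fold change 0.44) or either sh-ZNF217-labelled library (adjusted p of 0.0682 and 0.0786). CSF2RA lost it without NC replicate 2 or either sh-ZNF217-labelled library (0.0531 to 0.0805), IL10RA without either sh-ZNF217-labelled library (0.0770 and 0.108), and IL6ST without any of the 4 libraries (0.0766 to 0.120, all limma).

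**Figure D4:**
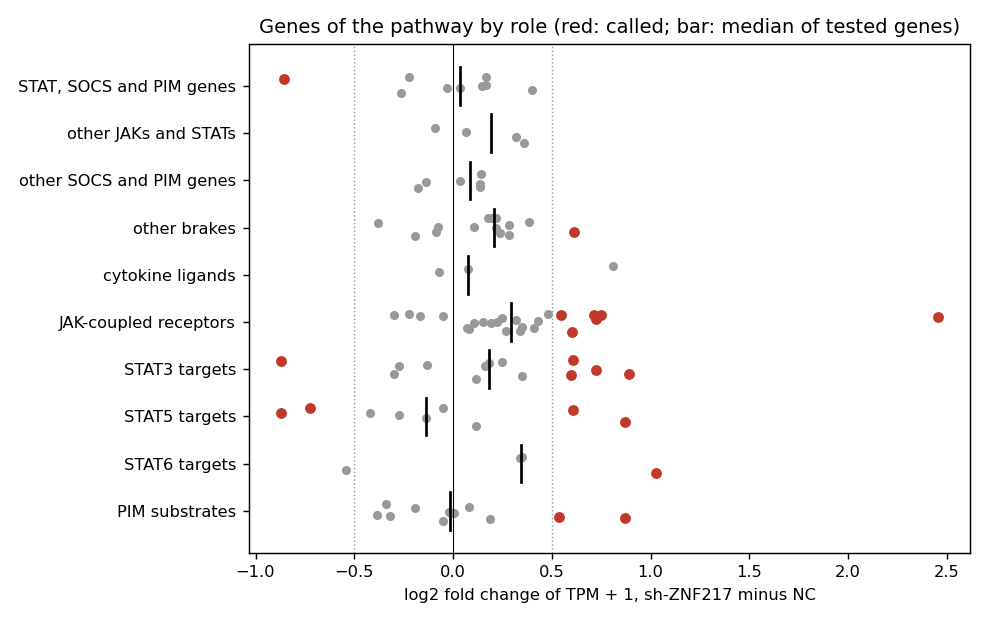
Log2 fold change of TPM + 1, sh-ZNF217-labelled libraries minus NC, of tested genes by role in the pathway, with called genes in red, a bar at the median of each list and dotted lines at 0.5 in both directions. The 10 genes, of which 9 are drawn, center on 0.04 with SOCS2 as the red point, and the JAK-coupled receptors center on 0.29 with 6 red points.

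Genes known to be switched on by the STATs were called in both directions. Of 13 tested STAT3 targets 4 were called higher (FOS, BCL6, BCL3 and IL6ST) and 1 lower (MYC), with a median log2 fold change of 0.18. The shares called over all tested genes were 6.26% higher and 2.46% lower. BCL3, a coactivator of NF-kB, had a log2 fold change of 0.89 at a limma adjusted p of 0.0232, BCL6, a transcriptional repressor, one of 0.61 (0.0219), and FOS, an AP-1 subunit, one of 0.60 (0.0117). MYC, a driver of growth, had 80.0 and 88.2 TPM in the sh-ZNF217-labelled libraries, against 158 and 150 TPM in NC (log2 fold change -0.87, limma adjusted p = 0.00339), and kept its call with each library left out. Without either sh-ZNF217-labelled library the STAT3 targets called higher numbered 0 (limma adjusted p of 0.0640 to 0.0986 for BCL3, 0.0714 to 0.0962 for BCL6 and 0.0632 to 0.0662 for FOS), and without either NC library they numbered 2. BCL6 also lost its call without NC replicate 1 (0.0700) and BCL3 without NC replicate 2 (0.0539). BCL6 overlaps other genes on the opposite strand.

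Of 9 tested STAT5 targets 2 were called higher (CDKN1A and BCL6) and 2 lower (MYC and ID1), against 6.26% and 2.46% of all tested genes. Their median log2 fold change was -0.14. CDKN1A, the p21 cell cycle inhibitor, had 73.7 and 77.2 TPM in the sh-ZNF217-labelled libraries, against 39.9 and 41.8 TPM in NC (log2 fold change 0.87, limma adjusted p = 0.00325), and kept its call with each library left out. It overlaps the noncoding DINOL on the other strand. ID1, an inhibitor of basic helix-loop-helix factors, had a log2 fold change of -0.72 at a limma adjusted p of 0.0200, and lost its call without NC replicate 1 (0.0803) or either sh-ZNF217-labelled library (0.0723 and 0.0816).

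Of 14 STAT6 targets 4 were tested, of which 1 was called higher and 0 lower, against 6.26% and 2.46% of all tested genes. At an unadjusted limma p below 0.05 there were 2 higher and 1 lower, against 18.9% and 15.5%. The lower one was FCER2, named after its values were seen. It had 20.8 and 17.9 TPM in the sh-ZNF217-labelled libraries, against 25.3 and 32.0 TPM in NC (log2 fold change -0.54, limma adjusted p = 0.054). In limma 1 STAT6 target was called lower with the filter at 5 TPM, with median-of-ratios scaling and with protein-coding genes alone. PPARG, a lipid-activated nuclear receptor, had 54.3 and 50.5 TPM in the sh-ZNF217-labelled libraries, against 21.9 and 29.0 TPM in NC (log2 fold change 1.03, limma adjusted p = 0.0113). The call was lost without either sh-ZNF217-labelled library (limma adjusted p of 0.0693 and 0.0586).

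Proteins that PIM kinases phosphorylate were examined as transcripts. Of 12 tested, 2 were called higher (CDKN1A and FOXO3) and 0 lower, against 6.26% and 2.46% of all tested genes. At an unadjusted limma p below 0.05 there were 2 higher and 4 lower, against 18.9% and 15.5%. The median log2 fold change was -0.01. FOXO3, a transcription factor that PIM1 and AKT hold in check, had 26.2 and 22.9 TPM in the sh-ZNF217-labelled libraries, against 17.4 and 15.9 TPM in NC (log2 fold change 0.54, limma adjusted p = 0.0293). Its call was lost without any of the 4 libraries (limma adjusted p of 0.0523 to 0.116).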

How the data were processed

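Total RNA was made into libraries with an Illumina TruSeq kit per the labels. The authors filtered reads and used HISAT2 (version 2.0.5) for alignment to hg38. The tool that quantified genes, its annotation and strand setting, and the depth were not stated in the labels or methods. The header of the deposited table names no unit, and the study's methods name FPM. Because every column has nearly the same total, the deposited values were taken as TPM. The totals do not by themselves show scaling by length. TPM holds no depth, and abundant genes that rise lower the rest. NC or ZNF with the replicate number assigned each column to its sample. Every column name also holds the tag D4, and those of the sh-ZNF217 samples read ZNFS1. Neither tag is explained in the labels.

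GENCODE 44 (hg38) named 16143 of 17656 identifiers. Differences were tested in limma 3.58.1 under R 4.3.3 (trended, robust empirical Bayes) on log2(TPM + 1), a scale that understates the change of low genes, with group as the only term. Named genes were the 10 genes, ZNF217, tested relatives and, per list, up to 4 called genes with the smallest p, or, where none was called, up to 2 with the smallest p. The members and lists were chosen with earlier results of these data known. Some listed genes, and results that need them, are not reported here. The procedure was tested on simulated data. Alternatives covered the pseudocount, filter, scaling, gene set, variance model, replicate block and each library left out. Plots used matplotlib 3.10.9 under Python 3.11.15.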

Additional observations from a re-analysis of the deposited data

How the results depend on the processing

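With 2 libraries a group, leaving out 1 leaves a lone library that is assumed to vary like the others. The number of libraries limits precision, and the part of depth in it is unknown. Over the fits with 1 library left out, the genes called higher numbered 312 to 723 (913 with all libraries) and those called lower 149 to 318 (359), the 10 genes called higher 0 and lower 0 to 1, and the JAK-coupled receptors called higher 1 to 5. A constant prior variance without robust fitting gave 560 higher and 163 lower, 0 of the 10 genes lower (SOCS2 adjusted p = 0.0714 in limma) and 3 receptors. It also ended the calls of PPARG, PTPRC, BCL3, BCL6, FOS, FOXO3, CD68, CD2, IL13RA1, IFNGR1 and IL10RA (limma adjusted p of 0.0548 to 0.0814), and left 1 of 4 STAT3 targets called higher. Median-of-ratios scaling gave 814 higher and 441 lower, and leaving out mitochondrially encoded genes 1039 and 293. With 1 library left out the log2 fold change took both signs for SOCS1 (-0.10 to 0.32), CISH (-0.34 to 0.42), CLCF1 (-0.008 to 0.16), JAK3 (-0.23 to 0.046), PIM2 (-0.32 to 0.039) and SOCS6 (-0.068 to 0.14), and the cause was not tested. The difference between replicates in NC was not correlated over genes with that in sh-ZNF217 (-0.005). This does not settle whether replicate numbers pair the libraries by design. With the replicate block 749 genes were called higher and 300 lower, and SOCS2 stayed called (limma adjusted p = 0.0216), as it did with a pseudocount of 0.1, with either other filter, with either scaling and with protein-coding genes alone. Under the block IL6ST (limma adjusted p = 0.0604) and PAX5 (0.0771) lost their calls, and no other gene named did.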
